A study of Mus musculus with 24 samples.

Results

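The glutathione S-transferase (Gst), UDP-glucuronosyltransferase (Ugt) and sulfotransferase (Sult) genes were followed across 24 mammary tumors that arose in BALB/c mice given the carcinogen 7,12-dimethylbenz[a]anthracene (DMBA) by oral gavage. Members were taken by name: every non-control probe of the array whose gene name began with Gsta, Gstk, Gstm, Gsto, Gstp, Gstt, Ugt1a, Ugt2b or Sult followed by a digit. This gave 71 probes of 46 genes, out of 39429 probes and 30175 gene names on the array. All mice had received DMBA, so no tumor-free or carcinogen-free tissue was in the comparison. Diets were started around puberty. Mice in 1 set stayed on a low-fat diet (LFD) or on a diet rich in saturated fat from animals (HFD), and mice in the other set were switched at adulthood from low to high fat (LFD-HFD) or from high to low fat (HFD-LFD). The labels class each tumor as early or late in onset, without a time. There were 5 LFD late, 3 HFD early, 6 HFD late, 4 LFD-HFD late, 3 HFD-LFD early and 3 HFD-LFD late tumors, so the 6 early tumors all came from mice that ate the high-fat diet during puberty. The labels do not say that each tumor came from its own mouse, and p-values measure the spread between these tumors.

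Phase II enzymes attach a water-soluble group to a foreign or endogenous compound, which marks it for export from the cell. Glutathione S-transferases couple reactive electrophiles to glutathione, UDP-glucuronosyltransferases add glucuronic acid and sulfotransferases add sulfate. The first group can neutralise reactive products of polycyclic hydrocarbons such as DMBA, whereas sulfate esters of some hydroxymethyl derivatives of these hydrocarbons are themselves reactive. Sulfation and glucuronidation also inactivate steroid and thyroid hormones, and many Gst genes are known targets of the stress-responsive transcription factor Nrf2.

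Values are log2 ratios of the tumor signal to the signal of a common reference RNA, a pool of mouse cell lines, on the same array. The labels place the tumor RNA in cyanine 5, whereas the text of the study places the reference there. The cyanine 5 channel was the more variable between arrays (median SD of a probe 0.51, against 0.19 in cyanine 3, log2 units). On 2 Y chromosome spots that were well above background in cyanine 3 on every array, cyanine 3 was the brighter channel in 48 of 48 readings. The ratio was therefore taken as tumor over reference, which is opposite to the dye stated in that text. A ratio below 0 means less RNA than in the pooled cell lines, and levels of different probes are not compared.

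On each array, 66.1% to 89.2% of spots had a tumor signal well above background. Epithelial markers Krt8, Krt18 and Epcam were well above background on all 24 arrays. So were Alb, Ckm and Adipoq, markers of liver, muscle and fat, and Csn2 was on 19, so detection alone does not identify the tissue. Spots in the dimmed end rows of 7 arrays (slides 6 and 7, all late tumors) were not used, so n falls below 24 for 18 of the 44 member probes tested. The late tumor HFD late replicate 4 stood apart: it had the highest mean of the 14 squamous markers (2.68) and the lowest mean of the 8 luminal epithelial markers (-2.35) of the 24 tumors, and results that rest on it are given without it. In whole tumors, fewer cells of a type and less RNA per cell cannot be told apart.

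The sequences below belong to members on which the onset comparison turned. Promoter sequences, 250 bases up to the transcription start, were available for 39 of the 46 genes (RefSeq, GRCm38.p6). They were searched on both strands for TGACNNNGC, the core of the antioxidant response element bound by Nrf2, for GCGTG, the core of the element bound by the aryl hydrocarbon receptor, and for TGACTCA, an AP-1 site. Of all 32851 promoters in the table, 10.2% held TGACNNNGC, 28.2% held GCGTG and 4.46% held TGACTCA. Of the 48 promoters of these 39 genes (some genes have several entries), 3 held the first, 8 the second and 6 the last, which is 6.25%, 16.7% and 12.5%. Gsta3, which was lower in early tumors, and Gstm5, which was higher, both held TGACNNNGC, 121 and 42 bases before the start. In Gstm5 each of the 2 GCGTG matches, on the opposite strand, overlaps another motif. Gstt1, which was lower in early tumors, held none of them in this window. Capitals mark the matches.
Gstt1 promoter (chr10:75797732-75797981, minus strand): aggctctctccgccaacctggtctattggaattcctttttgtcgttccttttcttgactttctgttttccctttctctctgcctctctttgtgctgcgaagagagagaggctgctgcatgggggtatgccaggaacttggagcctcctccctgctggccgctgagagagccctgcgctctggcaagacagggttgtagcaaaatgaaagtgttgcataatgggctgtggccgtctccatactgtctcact
Gsta3 promoter (chr1:21240335-21240584, plus strand): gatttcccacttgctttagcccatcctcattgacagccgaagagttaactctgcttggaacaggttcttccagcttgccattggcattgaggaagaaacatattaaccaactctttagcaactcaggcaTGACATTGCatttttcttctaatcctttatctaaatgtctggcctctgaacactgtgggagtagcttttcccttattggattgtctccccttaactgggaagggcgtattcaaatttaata
Gstm5 promoter (chr3:107895604-107895853, plus strand): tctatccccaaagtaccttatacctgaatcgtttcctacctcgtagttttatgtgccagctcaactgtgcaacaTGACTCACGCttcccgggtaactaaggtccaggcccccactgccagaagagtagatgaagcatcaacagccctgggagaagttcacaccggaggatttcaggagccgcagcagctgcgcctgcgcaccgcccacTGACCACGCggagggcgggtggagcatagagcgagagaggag
The array itself reads each gene through a 60-base probe. Probes of 4 called members are shown because a call is a statement about hybridisation to these letters (positions on mm9, as in the array annotation; the Gsta4 probe crosses an intron).
Gstt2 probe (chr10:75295206-75295265): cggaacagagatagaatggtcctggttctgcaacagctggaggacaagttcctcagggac
Gsta4 probe (chr9:78046172-78047344): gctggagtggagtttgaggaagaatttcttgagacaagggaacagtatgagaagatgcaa
Gstm5 probe (chr3:107701101-107701160): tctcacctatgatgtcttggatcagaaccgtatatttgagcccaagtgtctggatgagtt
Sult5a1 probe (chr8:125666951-125667010): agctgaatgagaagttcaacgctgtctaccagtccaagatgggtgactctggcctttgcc
The longest run of bases shared by tested probes of different member genes was 13, between Gstp1 and Gstp2.

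Of the 71 member probes, 44 probes of 27 genes had enough signal in both channels to be tested among 27292 probes (signal over 10 above background on at least 80% of arrays). In early against late tumors, 12 of the 44 passed an adjusted p of 0.05 (limma, Benjamini-Hochberg over all probes tested), against 16.4% of all probes tested. At an unadjusted p under 0.05 there were 19 of 44, against 32.8% of all probes. The members called lower were 10 of 44 probes (22.7%, against 9.7% of all probes), and 2 were called higher (4.55%, against 6.73%). The median early minus late difference over the 44 probes was -0.22 log2 units, and over all probes tested it was -0.05. With arrays centred on their median in place of loess, which moved the median of all probes to 0.21, 6 member probes were called higher and 7 lower, against 20.2% and 4.58% of all probes. From the tumor channel alone 5 were called higher and 5 lower, against 6.88% and 4.83%. The 12 called probes belonged to 10 genes. Gstt1, Gstt2, Gstt3, Gsta3, Gsto2, Gstm1, Sult5a1 and Sult1b1 were lower in early tumors, and Gsta4 and Gstm5 were higher. For no member probe did the early and late tumors separate without overlap, which 0.685% of all probes did.

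**Figure D1:**
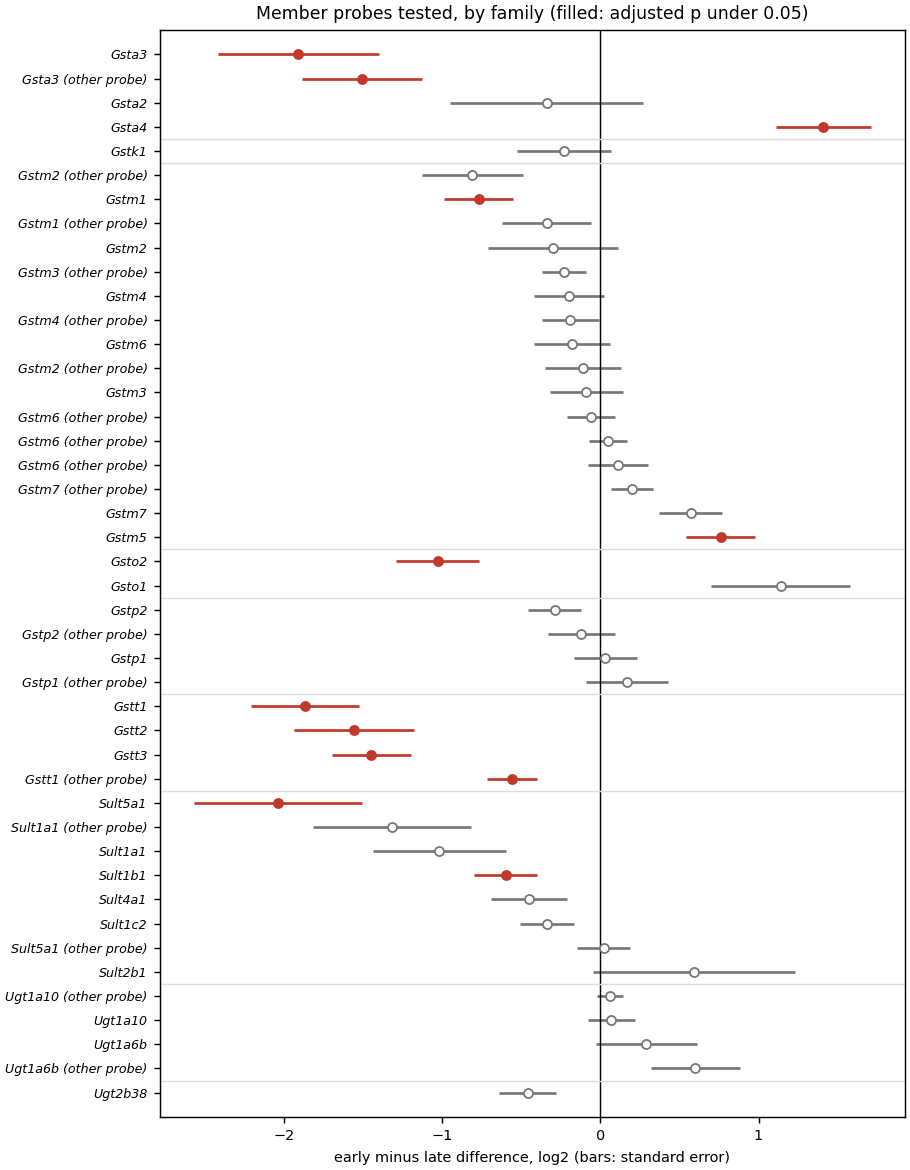
Early minus late difference (x axis, log2; bars are standard errors) of the 44 member probes tested, grouped by family. Filled points passed an adjusted p of 0.05: 10 lie below 0, among them all 4 Gstt probes, and 2 lie above, Gsta4 and Gstm5.

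The theta-class transferases, an ancient branch of the family that acts on small halogenated compounds and reactive sulfate esters, were lower in early tumors at all 4 tested probes. Gstt1 was 3.67-fold lower, with an early minus late difference of -1.87 (SE 0.34, adjusted p = 0.00135). Its values in HFD early tumors were -1.71, -3.5 and -2.63, and in HFD-LFD early tumors -2.52, -2.09 and -2.2. In the LFD-HFD late group they were 0.07, 0.41, 0.22 and -0.1, and in the HFD-LFD late group 0.14, -0.22 and -1.43. All 6 early tumors lay below the median of the 18 late tumors. The LFD late tumors gave -0.25, 0.07, -1.15, -1.62 and -0.04, and the 6 HFD late tumors ranged from -2.36 to 0.1 with a median of -0.9. The overlap with the early range thus came from HFD late replicates 4 (-2.36) and 6 (-1.76). A second, dimmer Gstt1 probe moved the same way by less (difference -0.56, SE 0.16, adjusted p = 0.0174).

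Gstt2, a neighbour of Gstt1 on chromosome 10, was 2.95-fold lower (difference -1.56, SE 0.38, adjusted p = 0.00911, 6 early and 15 late tumors). The early tumors were tightly grouped, at -1.77, -1.3 and -1.76 in HFD early and -1.87, -1.84 and -1.54 in HFD-LFD early. LFD late tumors gave -0.18, 0.81, -0.37, -2.13 and 0.2, and HFD late tumors ran from -2.45 through a median of 0.06 to 0.65. The measured LFD-HFD late values were 0.59 and 0.49, and the HFD-LFD late values -0.14 and 0.36. Among the 15 late tumors measured, LFD late replicate 4 and HFD late replicate 4 were lower than every early tumor, and the other 13 were above every early tumor.

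Gstt3, the third theta-class gene of the cluster, was 2.74-fold lower (difference -1.45, SE 0.25, adjusted p = 0.000899). Early values were 1.14, -0.06 and 0.11 in HFD early and -0.37, -0.06 and 0.06 in HFD-LFD early. Late values were 1.88, 1.95, 1.31, 1.05 and 2.28 in LFD, and 2.02, 1.63, 2 and 2.06 in LFD-HFD. HFD late tumors ranged from -0.01 to 1.72 with a median of 1.52, and HFD-LFD late tumors gave 2.09, 1.89 and 0.66. HFD early replicate 1 was the highest early tumor, and LFD late replicate 4, HFD-LFD late replicate 3 and HFD late replicate 4 were the late tumors below it. Gstt4 did not pass the signal filter.

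The alpha class, which detoxifies epoxides and products of lipid peroxidation, was split. Gsta3 was 3.76-fold lower in early tumors (difference -1.91, SE 0.51, adjusted p = 0.0137). It was at -6.63, -7.09 and -6.65 in HFD early and at -5.91, -4.93 and -6.33 in HFD-LFD early. LFD late tumors gave -4.76, -4.78, -2.86, -6.07 and -4.33, and LFD-HFD late tumors -4.86, -3.41, -2.39 and -4.75. The HFD-LFD late values were -4.11, -3.64 and -5.4, and the HFD late tumors spread from -6.39 to -1.73 (median -4.8). All 6 early tumors lay below the late median, but 4 late tumors (LFD late replicate 4, HFD late replicates 5 and 6 and HFD-LFD late replicate 3) lay inside the early range. From the tumor channel alone the difference of Gsta3 was -1.59 and missed the threshold (SE 0.53, adjusted p = 0.0508). The second Gsta3 probe was called too (difference -1.51, SE 0.38, adjusted p = 0.0106).

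Gsta4, whose enzyme is specialised for 4-hydroxynonenal, a product of lipid peroxidation, moved the other way and was 2.65-fold higher in early tumors (difference 1.41, SE 0.3, adjusted p = 0.0035). HFD early tumors gave 0.82, 2.27 and 2.43, and HFD-LFD early tumors 2.39, 1.72 and 1.75. LFD late tumors were close together at 0.24, 0.58, 0.64, 0.51 and 0.67, as were LFD-HFD late tumors at 0.09, 0.25, 0.64 and 0.07. HFD late tumors ranged from -0.93 to 1.97 (median 0.35), and HFD-LFD late tumors gave 0.47, 0.51 and 1.42. Every early tumor was above the late median, and HFD late replicates 4 (1.97) and 6 (1.42) and HFD-LFD late replicate 3 (1.42) exceeded the lowest early value. Gsta2 was not called (difference -0.34, SE 0.61, adjusted p = 0.732). Chosen after its values were seen, the single HFD late replicate 4 read 0.9 for Gsta2, where the late median was -4.08.

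**Figure D2:**
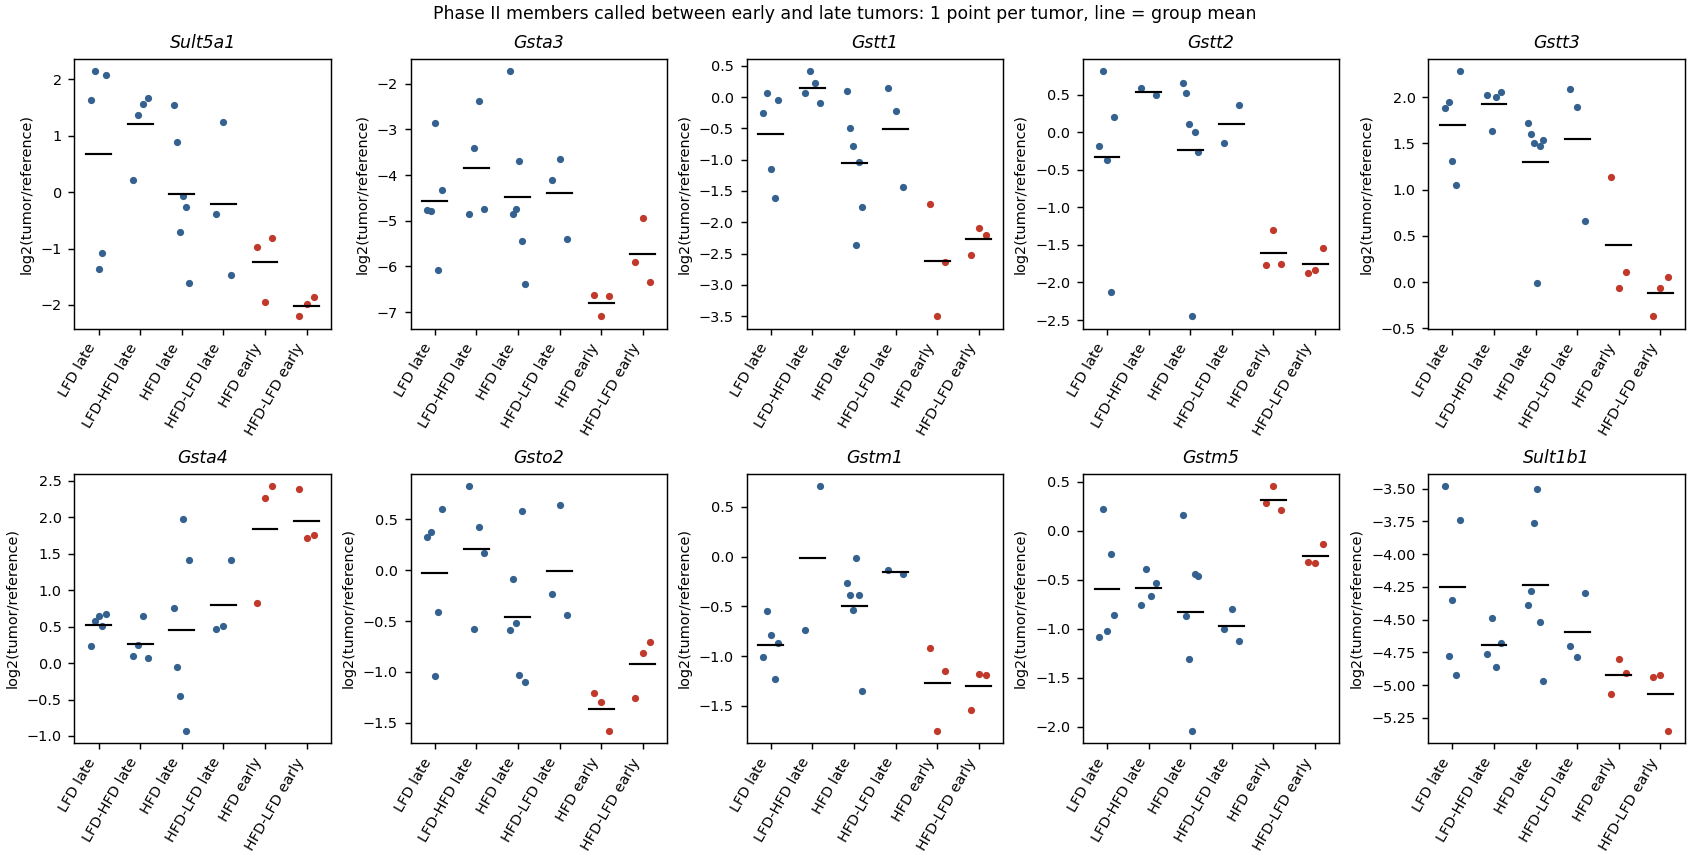
Log2(tumor/reference) of the brightest tested probe of the 10 genes called between early and late tumors, 1 point per tumor, by diet and onset group (red, early; blue, late; line, group mean). Gstt1, Gstt2, Gstt3 and Gsta3 sit low in both early groups and Gsta4 and Gstm5 sit high. A few late tumors lie inside the early range or, for Gstt2, below it.

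The mu class, the largest Gst family here with 16 tested probes of 7 genes, mostly did not pass the test. Gstm5, known for its expression in brain and testis, was 1.7-fold higher in early tumors (difference 0.76, SE 0.22, adjusted p = 0.0237). Its values were 0.29, 0.46 and 0.21 in HFD early and -0.32, -0.33 and -0.13 in HFD-LFD early. LFD late tumors gave -1.08, 0.22, -1.02, -0.23 and -0.86, LFD-HFD late tumors -0.76, -0.39, -0.66 and -0.53, and HFD-LFD late tumors -1, -0.8 and -1.12. HFD late tumors ranged from -2.04 to 0.16 (median -0.66). The HFD early tumors lay above all late tumors but LFD late replicate 2, which at 0.22 lay between the lowest of them and the next, while the HFD-LFD early tumors were inside the late range. The Gstm5 call was lost without HFD early replicate 1, 2 or 3 (differences 0.71, 0.68 and 0.73, adjusted p = 0.0571, 0.0769 and 0.0568) and with slide as a random block (0.71, SE 0.29, adjusted p = 0.123).

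Gstm1, a major liver transferase, was 1.71-fold lower at its brightest probe (difference -0.77, SE 0.22, adjusted p = 0.0219, 15 late tumors). Early values were -0.92, -1.75 and -1.15 in HFD and -1.54, -1.18 and -1.19 in HFD-LFD. LFD late tumors were almost as low, at -1.01, -0.55, -0.79, -1.23 and -0.87, whereas the 6 HFD late tumors had a median of -0.39 (-1.35 to -0.01). The measured LFD-HFD late values were -0.74 and 0.71, and the HFD-LFD late values -0.13 and -0.17. The array annotation places this probe on chromosome 5 and the other Gstm1 probe on chromosome 3, where the mu cluster lies. That other probe was not called (difference -0.34, SE 0.28, adjusted p = 0.412), so the Gstm1 result rests on a probe of uncertain origin. The call was lost with median centring (-0.43, adjusted p = 0.187), with the dimmed rows kept (-0.45, adjusted p = 0.483) and without HFD early replicate 2 (-0.68, adjusted p = 0.0716). Gstm2 had the brightest mu probe and was not called (difference -0.3, SE 0.41, adjusted p = 0.643). Its values were 0.08, 0.45, -1.69, -2.58 and 0.79 in LFD late tumors, so the spread within that group exceeded the difference between onset classes. Gstm3, Gstm4, Gstm6 and Gstm7 were not called at any probe, with adjusted p from 0.0587 for the brighter Gstm7 probe (difference 0.57, higher in 6 of 6 early tumors than the late median) upwards.

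In the omega class, whose members also reduce dehydroascorbate and methylated arsenic, Gsto2 was 2.05-fold lower in early tumors (difference -1.03, SE 0.26, adjusted p = 0.0103). The HFD early values were -1.21, -1.3 and -1.58, and the HFD-LFD early values -1.26, -0.81 and -0.71. LFD late tumors gave 0.33, 0.38, -1.04, -0.41 and 0.6, LFD-HFD late tumors 0.83, -0.58, 0.43 and 0.17, and HFD-LFD late tumors -0.23, 0.64 and -0.44. HFD late tumors had a median of -0.55 (-1.1 to 0.58). The HFD early tumors were below all 18 late tumors, while the HFD-LFD early tumors overlapped with 3 of them. From the tumor channel alone the Gsto2 difference was -0.83 (SE 0.3, adjusted p = 0.0658). Gsto1, its neighbour on chromosome 19, had an early minus late difference of 1.14 that did not pass (SE 0.44, adjusted p = 0.078). Gsto1 was at -1.64 in HFD early replicate 1 but between -0.11 and 0.85 in the other 5 early tumors. Its late values ran from -2.07 to 1.92 with a median of -1.36, the highest being HFD late replicate 4.

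The remaining Gst families changed little. Gstp2 (pi class) carried the brightest Gstp probe, with a difference of -0.29 (SE 0.17, adjusted p = 0.232). The 6 early values of Gstp2 lay between -1.02 and -0.22 and the late values between -0.98 and 0.39. The 4 probes of Gstp1 and Gstp2, whose product is abundant in many tumors, had differences from -0.29 to 0.17. Gstk1, a mitochondrial and peroxisomal transferase, had a difference of -0.23 (SE 0.3, adjusted p = 0.619), with early values from -0.55 to 1.01 and late values from -0.43 to 1.65.

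Among the sulfotransferases, 8 probes of 6 genes were tested and 2 were called, both lower. Sult5a1, an orphan member of the family, had the largest difference of all members (-2.04, SE 0.53, adjusted p = 0.0117), 4.12-fold lower in early tumors. HFD early tumors gave -0.97, -1.94 and -0.82, and HFD-LFD early tumors -2.2, -1.99 and -1.86. LFD late tumors fell apart into 1.63, 2.14 and 2.08 against -1.36 and -1.08, and LFD-HFD late tumors gave 0.22, 1.37, 1.56 and 1.67. HFD late tumors ranged from -1.61 to 1.55 (median -0.17), and HFD-LFD late tumors gave -0.39, 1.24 and -1.47. Its other probe, placed further along chromosome 8, did not follow it (difference 0.02, SE 0.17, adjusted p = 0.96). That probe was dimmer (mean log2 intensity of both channels 7.17, against 10.55). It was well above background in all HFD and LFD tumors and in 3 of 4 LFD-HFD late tumors. In HFD-LFD it was so in 1 of 3 early and 0 of 3 late tumors, so its flat result is limited by weak signal there.

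Sult1b1, which sulfates thyroid hormones and phenols, was called lower (difference -0.6, SE 0.2, adjusted p = 0.0419) from weak signals. It was not well above background on any of the 6 early arrays and was so on 5 of 18 late arrays, and 4 of its 24 ratios were imputed. On the log2 scale of the tumor channel the measured early mean was 5.77 and the late mean 6.35, but in the fit to the tumor channel alone the difference was -0.1 (SE 0.12, adjusted p = 0.655). The call was also lost when any of 9 single tumors was left out. Its ratios were -5.07, -4.8 and -4.91 in HFD early, -4.94, -4.92 and -5.35 in HFD-LFD early, and -4.97 to -3.48 (median -4.5) in late tumors. Sult1a1, the main phenol sulfotransferase and the brightest of the family, did not pass (difference -1.02, SE 0.42, adjusted p = 0.095, and -1.32, SE 0.5, adjusted p = 0.0725 at its other probe). Early Sult1a1 values were -3.85, -3.88 and -2.35 in HFD and -3.63, -3.77 and -3.77 in HFD-LFD, against late values of -4.37 to -0.47 (median -2.63, n = 14). Sult1c2, Sult2b1 and Sult4a1 were not called. Of these, the cholesterol sulfotransferase Sult2b1, a gene of keratinising epithelium, read 2.33 in HFD late replicate 4 against a late median of -1.55.

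None of the 5 glucuronosyltransferase probes that passed the signal filter was called (limma; 2 at an unadjusted p under 0.05), and 2 dimmer Ugt2b probes called without that filter are given with the untested probes. Ugt1a6b, of the phenol-glucuronidating subfamily, had a difference of 0.29 (SE 0.32, adjusted p = 0.543) at its brightest probe. Ugt1a6b values were -1, -1.32 and -1.53 in HFD early, -0.61, -1.06 and -0.95 in HFD-LFD early and -3.25 to 0.11 (median -1.21, n = 16) in late tumors. Ugt1a transcripts share their last exons, so a probe near the end of the locus cannot tell them apart. Ugt2b38 was the single Ugt2b gene tested, with a difference of -0.46 (SE 0.18, adjusted p = 0.0844). Its early values lay between -4.45 and -3.89 and its late values between -4.38 and -2.91, near background in both.

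The other 27 member probes, which leave 19 genes without any tested probe, failed the signal filter. For 11 of them the reference was well above background on all 24 arrays, so that the tumors were the dim side; these read Sult1d1, Sult1e1, Sult2a1, Sult2a2, Sult2a6, Sult3a1, Sult4a1, Ugt2b5, Ugt2b34, Ugt2b36 and Ugt2b37. The estrogen sulfotransferase Sult1e1 was well above background in 5 of 24 tumors, and Sult2a1, a hepatic steroid sulfotransferase, in 0. Counts of tumors above background here take all arrays. They include late arrays on which the spots of Sult1e1, Ugt1a6a or the called Sult1d1 probe lay in dimmed rows. A single probe failed from the other side. Ugt1a6a, which the annotation places at the shared end of the Ugt1a locus, was well above background in 13 of 24 tumors and on 0 reference arrays. It reached that level in all 6 early tumors and in 7 of 18 late tumors. Ugt1a6a kept a usable signal in only 4 of 5 LFD late, 4 of 6 HFD late and 3 of 4 LFD-HFD late tumors, so its late count may be too low. Its background-subtracted tumor signal was 42.9 to 55.2 in HFD early and 41.2 to 54.8 in HFD-LFD early, against 3.45 to 48.6 in LFD late, 25.1 to 63.7 in HFD late, 27.4 to 112 in LFD-HFD late and -9.1 to 47.8 in HFD-LFD late tumors, so the ranges overlapped. In a fit of all 39429 probes without the signal filter, 14 of the 71 member probes were called, 2 higher and 12 lower, against 11.5% of all probes. Of the 27 otherwise untested probes, 3 were called there, all lower in early tumors. Ugt2b5 had a difference of -0.54 (SE 0.16, adjusted p = 0.0308) and Ugt2b34 of -0.79 (SE 0.25, adjusted p = 0.0445), both of a subfamily that conjugates steroids. Sult1d1, a sulfotransferase of catecholamines and phenols, had a difference of -0.86 (SE 0.27, adjusted p = 0.0408) at 1 probe and 0.12 (SE 0.1, adjusted p = 0.472) at the other. The signals were dim: Ugt2b5 was well above background in 4 of 24 tumors, Ugt2b34 in 3 and the called Sult1d1 probe in 8. The Ugt1a6a ratio had a difference of 0.14 that did not pass (SE 0.13, adjusted p = 0.513).

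**Figure D3:**
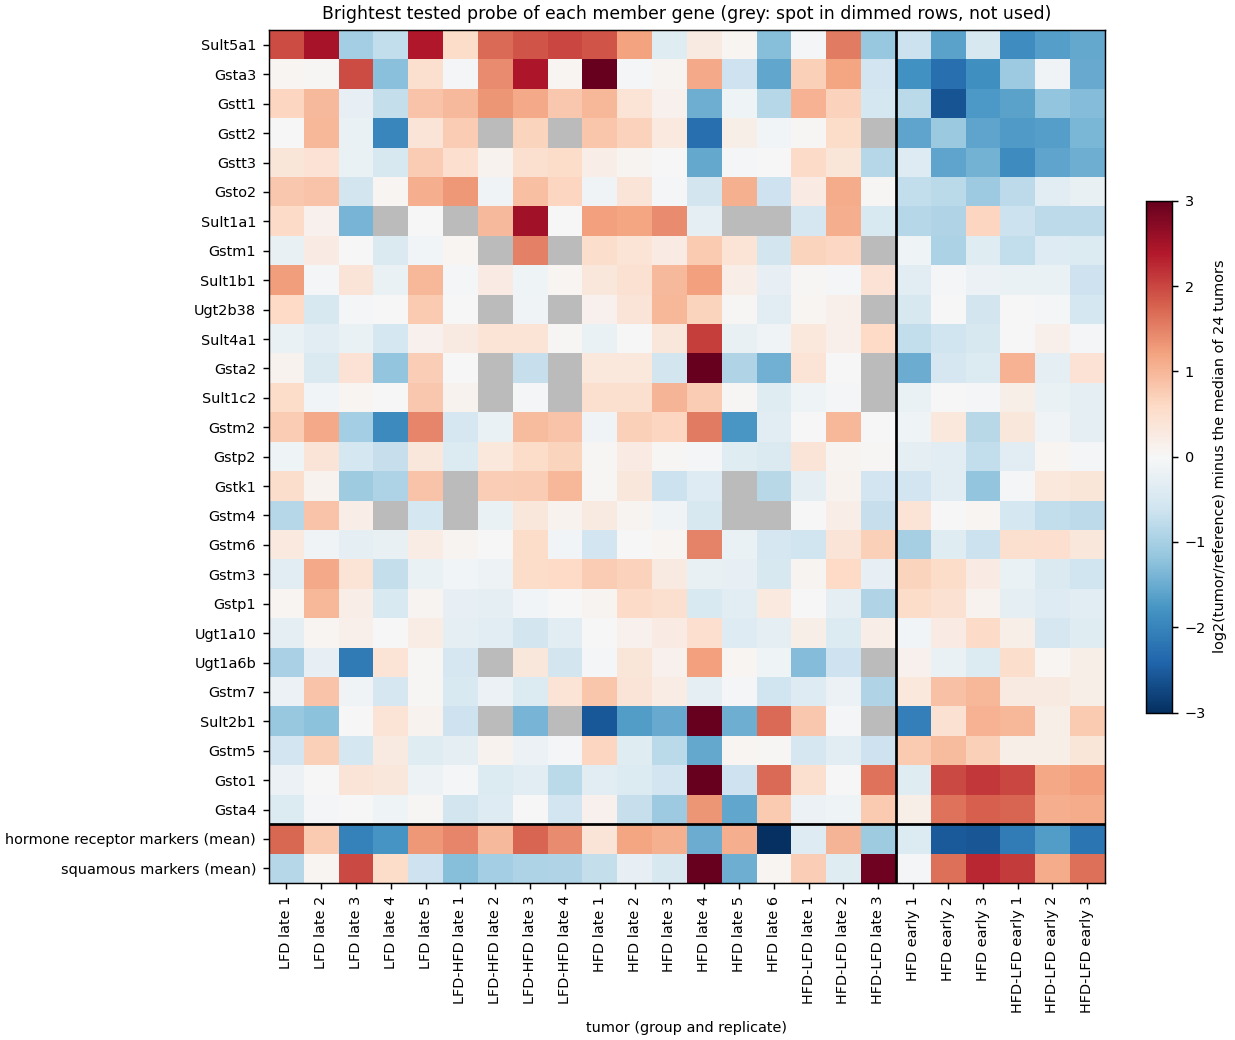
Brightest tested probe of each of the 27 member genes (rows, ordered by early minus late difference) in 24 tumors (columns), as log2(tumor/reference) minus the median of the gene, with the means of the hormone receptor and squamous markers below. The top rows are blue in the 6 early tumors on the right, and HFD late replicate 4 differs from the other late tumors in Gsta2, Sult2b1, Gsto1 and the Gstt genes.

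The onset difference was then set out within each diet. HFD early and HFD late tumors differed at 3 of 44 member probes (6.82%), against 13.2% of all probes tested (6.57% higher and 6.65% lower); 17 of 44 had an unadjusted p under 0.05, against 29.6% of all probes. These were Gstt1 (difference -1.56, SE 0.48, adjusted p = 0.0365), the second Gsta3 probe (-2.21, SE 0.55, adjusted p = 0.0133) and Gstm5 (1.15, SE 0.34, adjusted p = 0.029). Without HFD late replicate 4 the count was 7, without replicate 6 it was 8, without HFD late replicate 3 or HFD early replicate 3 it was 1, and without HFD early replicate 2 it was 0. Shares of all probes are not given for these fits, so the moves are not read as a result about the members. In the early against late fits the calls over all probes moved too. They were 962 higher and 1404 lower without HFD early replicate 2, and 2153 higher and 3143 lower without HFD late replicate 6. The HFD early tumors were alone on slide 2 and the HFD late tumors on slides 3 and 6, and with slide as a random block all 3 calls were lost (0 of 44, against 1.32% of all probes). HFD-LFD early and late tumors, 3 against 3, differed at 0 of 44 probes (limma; 11 at an unadjusted p under 0.05), against 0.762% of all probes. The smallest adjusted p was 0.0646, for Gstt3 (difference -1.67, SE 0.42). For Gstt1 the HFD-LFD difference was -1.77 (SE 0.55, adjusted p = 0.13), for Gsta4 1.15 (SE 0.55, adjusted p = 0.328) and for Gsta3 -1.34 (SE 0.91, adjusted p = 0.511).

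The direction was the same in both diets for 30 of 44 member probes, which is near the 67.7% of all probes that agreed in sign. By brightest probe it was the same for 20 of 27 member genes, and no share over all genes was computed. The difference between the HFD and HFD-LFD onset changes passed for 0 of 44 member probes and 0% of all probes (3 members at an unadjusted p under 0.05, against 8.36% of all probes). The largest such difference among brightest probes was that of Ugt1a6b, -0.43 in HFD and 1.21 in HFD-LFD, which did not pass (-1.64, SE 0.68, adjusted p = 0.544).

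**Figure D4:**
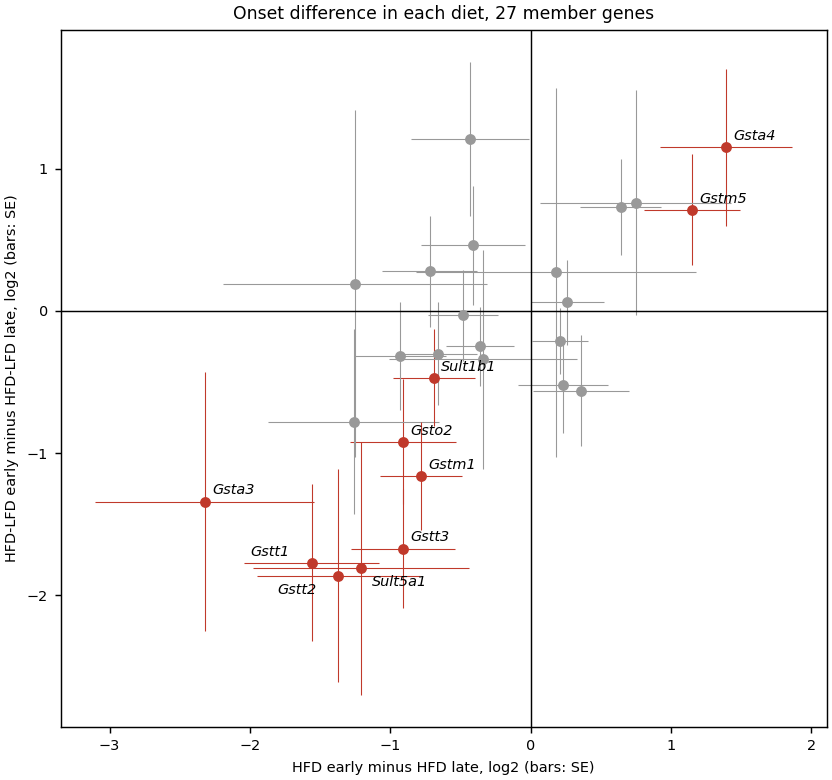
Early minus late difference of 27 member genes in HFD (x axis) and in HFD-LFD tumors (y axis), log2, with standard errors. The 10 genes called over all 24 tumors (red, named) lie in the lower left or upper right quadrant, and the error bars of the HFD-LFD differences are wide. The calls used these same tumors, so the quadrants are not independent of the calls.

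Diet itself was compared in 9 HFD and 5 LFD tumors. No member was called (limma, 0 of 44, and 0% of all probes; 1 of 44 at an unadjusted p under 0.05, against 4.29% of all probes). HFD minus LFD differences of the 27 genes ran from -1.12 for Sult5a1 (SE 0.69) to 0.72 for Ugt1a6b (SE 0.36). The member at an unadjusted p under 0.05 was the second Gstt1 probe (-0.53, SE 0.21, adjusted p = 0.982). Because 3 of the 9 HFD tumors were early and no LFD tumor was, this comparison carries onset with it.

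Among late tumors of the 4 diets, 1 of 44 member probes was called, against 2.24% of all probes (5 at an unadjusted p under 0.05, against 19.8%). It was a dim probe of Gstm6, a mu-class gene (moderated F over the 3 diets against LFD, adjusted p = 0.0239, 14 late tumors). HFD late tumors gave -0.35, -0.35, -0.32 and -0.3, and LFD late tumors 0.2, -0.2, -0.49 and -0.56, the last pair imputed. Both switched diets were lower, at -1.06, -0.97 and -0.96 in LFD-HFD and -1.18, -0.85 and -1.02 in HFD-LFD. For this probe the measured tumors of the switched diets were on other slides (4, 5 and 7) than the LFD (slide 1) and HFD (slide 3) late tumors, and diet cannot be told apart from slide. The brightest Gstm6 probe did not pass.

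Arrays were hybridised on 7 slides and scanned in 3 sessions, and onset was spread unevenly over them. Early tumors lay on slides 2 (3 HFD early alone) and 4 (3 HFD-LFD early and 1 LFD-HFD late). Within scan session 1 (3 HFD early, 8 late tumors) and within session 2 (3 HFD-LFD early, 3 late tumors), each of the 10 called genes kept its direction. The genes were called with these same tumors included, so the kept direction is not independent of the calls. Session 1 alone called 3 member probes, against 7.51% of all probes, and session 2 alone called 17, against 11.3%. Gstt1 was at -2 (SE 0.51, adjusted p = 0.0414) in session 1 and at -2.32 (SE 0.17, adjusted p = 0.00294) in session 2, as an early minus late difference. With session as a fixed block 14 member probes were called, against 25.1% of all probes. On slide 4, the single LFD-HFD late tumor lay outside the range of its 3 early neighbours in the late direction for 10 of the 10 genes, for example at 0.22 against -2.52 to -2.09 for Gstt1. These tumors were part of the fit that called the genes, so the placement is not independent of the calls. Its share over all probes was not computed. For Sult1b1 the late tumor was at -4.86 against -5.35 to -4.92, from signals not well above background. With slide as a fixed block, where this tumor alone carries the onset comparison, 0 of 29 estimable member probes were called, against 0.297% of all probes, and the difference of Gstt1 was -2.5 (SE 0.85, adjusted p = 0.25).

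**Figure D5:**
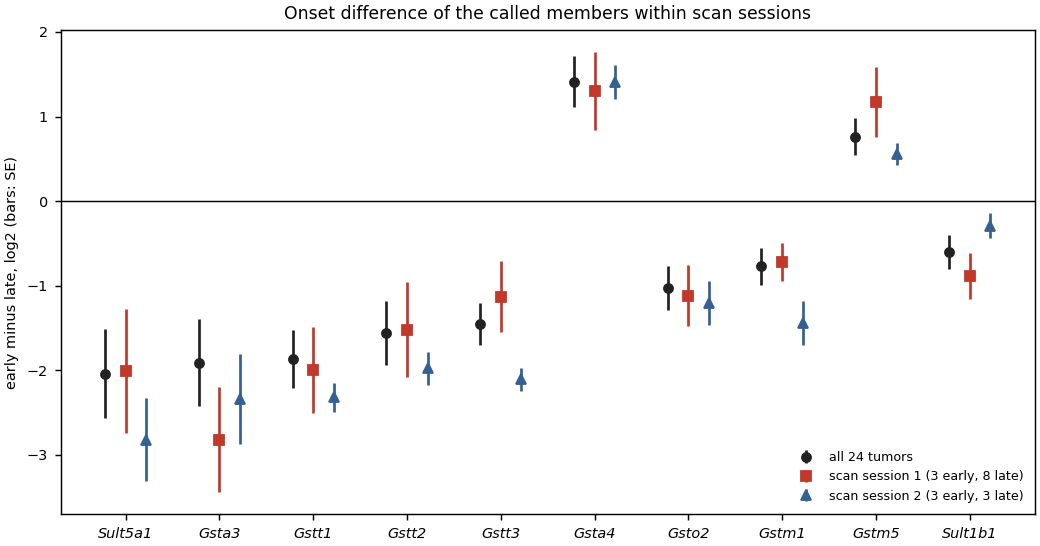
Early minus late difference (y axis, log2; bars are standard errors) of the 10 called genes over all 24 tumors, in scan session 1 alone and in scan session 2 alone. Every gene keeps its sign in both sessions, and Gstt3 and Sult5a1 show the widest gaps between them. The genes were called with the tumors of both sessions included, so the signs are not independent of the calls.

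Marker lists of cell types were set beside the members, with 9.7% of all probes tested called lower in early tumors and 6.73% higher. Hormone receptor markers of luminal cells were lower in early tumors at 7 of 9 tested genes (median difference -2.05), with list means from -0.81 to 1.35 in early and from -1.3 to 3.49 in late tumors. Of 14 squamous markers 0 were called higher and 1 lower (median difference 1.27), with list means of -1.98 to 0.34 in early and -3.4 to 2.68 in late tumors. Adipocyte markers were called at 0 of 9 tested genes (median difference -0.87; early -3.11 to -1.84, late -3.64 to 1.34), and proliferation markers were higher at 5 of 10 (median difference 0.66; early 0.12 to 0.78, late -1.34 to 0.87). Basal epithelial markers were lower at 3 of 8 genes (median difference -1.52; early -1.1 to 0.16, late -0.77 to 2.15), among them the smooth muscle genes Myh11 (-2.88, SE 0.68, adjusted p = 0.0087) and Cnn1 (-3.03, SE 1.02, adjusted p = 0.0445). Fibroblast markers were lower at 2 of 8 (median difference -0.44; early -3.02 to -2.2, late -3 to -0.14), which were the matrix genes Dcn (-2.54, SE 0.51, adjusted p = 0.00317) and Postn (-1.89, SE 0.45, adjusted p = 0.00847). Endothelial markers were lower at 2 of 8 (median difference -0.37; early -2 to -1.4, late -2.14 to -0.36), led by Vwf (-2.66, SE 0.62, adjusted p = 0.00646). Of the milk protein (7 genes), T cell (7), macrophage (8) and luminal epithelial (8) lists, 1 gene each was lower, with median differences of -2.18, -0.88, -0.06 and -0.62, and of the B cell (4), skeletal muscle (7) and hepatocyte (8) lists 0 were called, with medians of -0.1, -0.44 and -0.43. The part of these cells in the member differences was not tested. Within the 18 late tumors alone, 23 relations were computed (chosen after values were seen; permutation tests, adjusted over the 23). Among the theta-class genes, r was 0.85 for Gstt1 and Gstt3 (adjusted permutation p = 0.00023, rho = 0.77, adjusted p = 0.00563, r = 0.84 without the 2 tumors farthest from the Gstt1 median, 0.95 and 0.7 within scan sessions 1 and 3). For Gstt1 and Gstt2 r was 0.82 over 15 tumors (adjusted permutation p = 0.00126; rho = 0.74, adjusted p = 0.0169; r = 0.77 without the 2 farthest tumors, 0.93 within session 1). For Gstt2 and Gstt3 r was 0.83 (adjusted permutation p = 0.00152; 0.89 within session 1), but rho was 0.61 (adjusted p = 0.0519) and r was 0.38 without the 2 farthest tumors, so that relation rests on those tumors.

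Gsto2 followed the mean of the hormone receptor markers over late tumors (r = 0.78, adjusted permutation p = 0.00069; rho = 0.75, adjusted p = 0.00563; r = 0.68 without the 2 farthest tumors, 0.83 and 0.8 within sessions 1 and 3). Sult5a1 did so as well (r = 0.77, adjusted permutation p = 0.00126; rho = 0.67, adjusted p = 0.0191; r = 0.67 without the 2 farthest tumors, 0.68 and 0.83 within sessions). Gsta4 ran against them (r = -0.63, adjusted permutation p = 0.00935; rho = -0.53, adjusted p = 0.0628; r = -0.6 without the 2 farthest tumors, -0.63 and -0.77 within sessions). Gstt1 had r = 0.77 with them (adjusted permutation p = 0.00131, r = 0.73 without the 2 farthest tumors). Its rho of 0.51 did not pass (adjusted p = 0.0659). For Gstt2 r was 0.63 over 15 tumors (adjusted permutation p = 0.0251) and rho 0.52 (adjusted p = 0.0833). Both passed for Gstt3 (r = 0.61, adjusted permutation p = 0.0151, rho = 0.6, adjusted p = 0.0436). With the squamous markers, Gstt3 had r = -0.83 (adjusted permutation p = 0.00131), which was -0.38 without the 2 farthest tumors, 1 of them HFD late replicate 4, and its rho was -0.46 (adjusted p = 0.0846). Gsta4 (0.74), Gstt1 (-0.71), Gstt2 (-0.74), Gsto2 (-0.61), Gstm5 (-0.59) and Sult5a1 (-0.49) also passed on r (adjusted permutation p 0.00131 to 0.047). Gsta3, Gstm1 and Sult1b1 did not. No rho with the squamous markers passed, the smallest adjusted p being 0.0519. Without the 2 farthest tumors r was 0.44 for Gsta4, -0.43 for Gstt1, -0.47 for Gstt2 and -0.13 for Gstm5. For Gsto2 and Sult5a1 it changed little, to -0.59 and -0.53. Gsta3, Gstm1, Gstm5 and Sult1b1 had r between 0.14 and 0.41 with the hormone receptor markers, none of them past the test.

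Other genes of the conjugation pathway are set beside the members here. Of all probes tested, 9.7% were called lower in early tumors and 6.73% higher, so 1 call in a short list is no result about that list. Of 19 other phase II and oxidoreductase enzymes tested, 5 were lower in early tumors and 0 higher (median difference -0.51); the quinone reductase Nqo2 had a difference of -0.88 (SE 0.19, adjusted p = 0.00379) and the arylamine acetyltransferase Nat2 -0.76 (SE 0.16, adjusted p = 0.00399). For the supply of glutathione, 3 of 11 genes were lower. G6pdx, which makes the NADPH that keeps glutathione reduced, had a difference of -1.29 (SE 0.27, adjusted p = 0.00359), and Ggt1, which cleaves extracellular glutathione, -2.06 (SE 0.6, adjusted p = 0.0229). Among genes that supply the other donors 1 of 9 was higher, Ugdh, which makes UDP-glucuronic acid (0.57, SE 0.18, adjusted p = 0.0383), while Papss2, which makes the sulfate donor, did not pass (-0.9, SE 0.32, adjusted p = 0.0592).

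Of 10 pumps that export conjugates, 2 were lower: Abcb1a (-0.88, SE 0.15, adjusted p = 0.000914) and Abcc3 (-1.4, SE 0.39, adjusted p = 0.0174). None of 4 deconjugating enzymes was called (limma; 1 at an unadjusted p under 0.05), the smallest adjusted p being 0.0699 for Arsa (-0.54, SE 0.2) and the next 0.727 for Gusb (-0.09, SE 0.15). In the Nrf2 list 2 of 14 genes were lower and 1 higher: Osgin1 (-1.4, SE 0.23, adjusted p = 0.000533), Srxn1 (-1.33, SE 0.34, adjusted p = 0.0114) and, upward, Txnrd1. The aryl hydrocarbon receptor gene Ahr itself was the single called gene of 5 tested in its list (0.75, SE 0.24, adjusted p = 0.04), and its target Cyp1b1, which activates DMBA, did not pass (0.8, SE 0.33, adjusted p = 0.0964). In a list of 9 nuclear receptors, not all of them sensors of foreign compounds, 5 were lower in early tumors. These were led by Nr1i3, the constitutive androstane receptor (-0.64, SE 0.18, adjusted p = 0.019), and Pparg (-1.05, SE 0.31, adjusted p = 0.0246).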

How the data were processed

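RNA of 24 DMBA-induced mammary tumors was measured on 2-color Agilent 4 x 44K arrays, each beside a common mouse reference. The authors deposited, per spot and dye, the intensity of spot and local background and a background-subtracted intensity, without dye normalization. They also deposited a log10 ratio of the dyes, after the background and dye corrections of the scanner software; the authors' log10 values served as an alternative. The file headers name Feature Extraction 11.0.1.1, and the submitters' processing notes 8.5.1.1. Positions of probes are on mm9.

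The limma package (3.58.1, under R 4.3.3) corrected background by normexp with an offset of 50, fitted without outlier spots. Ratios were loess-normalized within arrays, then averaged over spots of a probe. Spots in end rows of 7 arrays, where tumor ratios were dimmed, were left missing. The tests took the 27292 of 39429 probes whose background-subtracted signals exceeded 10 in each dye on 80% or more of arrays. Other missing values were imputed from 10 nearest probes. A loss of signal in rows moves ratios down, and imputation narrows their spread. The array count limits the precision.

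Groups came from the labels. Early against late tumors, HFD against LFD, contrasts of 6 group means and a moderated F over late diets were fitted with limma on all probes and adjusted by Benjamini-Hochberg. Scripts were tested on simulated data. Alternatives covered background, normalization, filter, imputation, slide, scan session, weights and single arrays; array weights, variance trend and others are described with the results that moved. Members, lists and tests were chosen with earlier results of these data known. Genes named are those called, the brightest probe of each family, and up to 2 of each pathway list by smallest p. A gene is described by its brightest tested probe. Promoters are from the RefSeq table (GRCm38.p6). Of 39429 probes, 27234 were named by accession, 4145 by symbol or synonym and 8050 kept the name of the file.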

Additional observations from a re-analysis of the deposited data

Results flagged for a closer look

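Among 4 to 10 tumors of a group, a single tumor was far from the others for 6 of 48 combinations of gene and group; chance flags about 1 in 20. In HFD late replicate 4 this held for Gstt2 (-2.45, the nearest of the 6 at -0.26), Gstt3 (-0.01, nearest 1.47), Ugt1a6b (0.11, nearest -0.76), Gstm6 (0.32, nearest -1.12) and Sult1a1 (-3.27, nearest -1.8, n = 4). That tumor also had the highest squamous marker mean of the 24 (2.68). In LFD-HFD late replicate 2, on a slide with dimmed rows, Gstt3 was 1.63, with the nearest of the 4 tumors at 2. The early against late comparison called 13 member probes without HFD late replicate 4, when 1989 of all 27292 probes were called higher and 2802 lower.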

How the results depend on the processing

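Of 12 member probes called between early and late tumors, alternatives gave between 9 and 17 (6.94% to 25.1% of all probes), except 21 with array weights (33.5% of all probes), 19 at an unadjusted p (32.8%), 0 with slide as a fixed block (0.297%) and 3 in scan session 1 alone (7.51%). Leaving out single tumors gave 8 (without HFD early replicate 2) to 15 (without LFD late replicate 3). Of all 27292 probes, these 2 fits called 962 higher and 1404 lower, and 2264 higher and 3271 lower. Within HFD (3), the count was 7 with normexp on all spots (16.3% of all probes), 6 from the log ratio of the scanner (11.3%), 0 from the tumor channel alone (6.07%), 27 with array weights (42.4%), 0 with slide as a random block (1.32%), 9 of 36 with session as a fixed block (17.1%), 7 without slides 6 and 7 (16.8%) and 17 unadjusted (29.6%), and 0 to 8 when single tumors were left out. Within HFD-LFD (0), it was 1, 8, 2, 2 and 11 (2.45%, 11.9%, 1.41%, 1.99% and 15.1% of all probes) with normexp on all spots, array weights, session block, no slides 6 and 7 and unadjusted, and 0 to 1 without single tumors. The difference of these onset changes gave 2 with array weights (3.84%) and 3 unadjusted (8.36%), and HFD against LFD 1 unadjusted (4.29%); both stayed at 0 without any single tumor. The Gstm6 call among late diets was lost (0, against 0.022% to 2.32% of all probes) under 12 alternatives (no background correction, normexp on all spots, scanner log ratio, median centring, tumor channel alone, dimmed rows kept or imputed, 1 probe per gene, slide as a random or fixed block, session block, no slides 6 and 7) and without LFD-HFD late replicate 2 (0 to 1), and the count was 9 with array weights (33.3%) and 5 unadjusted (19.8%). Signs turned for genes that were not called: with median centring Gstk1 (0.19), Gstm2 (0.05), Gstp2 (0.12) and Gstm6 (0.22); from the tumor channel alone Ugt2b38 (0.03) and Gstm6 (0.03); with array weights Gstm6 (0.18); with the slide block Ugt1a6b (-0.08); in session 2 alone Gstk1 (0.01) and Gstm6 (0.33); and, over single tumors left out, Gstm6 (-0.3 to 0, the latter without HFD early replicate 1). Sult1b1 lost its call in 11 of 21 alternatives, Gstm1 in 3 of 21, Gstm5 and Gsto2 in 3 of 22, Gsta3, Gsta4, Gstt3 and Sult5a1 in 2 of 22, Gstt1 in 1 of 22 and Gstt2 in 1 of 21, all in the same direction. Apart from the values in the report, the slide fixed block lost the calls of Gstt1, Gstt3, Gsta3, Gsta4, Gsto2, Gstm5 and Sult5a1. Session 1 alone lost those of Gstt2, Gstt3, Gsta4, Gsto2, Gstm1, Gstm5 and Sult5a1, while Gstt1 and Gsta3 kept theirs. Sult1b1 lost its call in both of these fits. It also lost it with no background correction, the scanner log ratio, median centring, or low signals left missing or kept (limma, adjusted p from 0.057 to 0.116). Without the signal filter, with slide as a random block and in session 2 alone, its adjusted p was 0.117 to 0.241. The cause was not tested. The bands of rows centred, low signals kept and the single sessions were added after seeing the data. The slide block could not be fitted within HFD or for the difference. No paired analysis was possible because replicate numbers were given in accession order. Signals near background limit Sult1b1, Ugt2b38 and the 27 untested probes.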
